A study of Mus musculus with 7 samples.

Results

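Hepatocytes keep their identity through a small network of transcription factors, and 9 genes that encode such factors were followed in the liver of Sprtn mutant mice. They are Foxa1, Foxa2, Foxa3, Hnf4a, Onecut1, Cebpa, Prox1, Nr5a2 and Nr1h4, and they were chosen by name, as the 9 rows that carry these symbols among 51826 genes of the deposited count table. RNA was sequenced from untreated liver of male C57BL/6J mice aged 6 months. The knock-in group (KI) held 4 libraries from mice homozygous for the Y118C allele of Sprtn, whose product cleaves proteins trapped covalently on DNA, and the wild-type group (WT) held 3 libraries. Counts per gene cannot show this substitution, so the genotype of each library was taken from its label. The sources used here do not state whether each library is a separate animal, whether the genotypes were littermates, or the hour and feeding state at which livers were taken, so p-values measure only the spread between these libraries, which may be technical.

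FOXA proteins are pioneer factors that bind closed chromatin and open liver enhancers for other factors. HNF4A, a nuclear receptor, binds the promoters of a large share of hepatocyte genes, and C/EBPα, encoded by Cebpa, drives genes of glucose and nitrogen metabolism. ONECUT1, also called HNF6, acts in liver and bile duct development, PROX1 is a homeobox protein that can repress HNF4A and NR5A2 activity, NR5A2 regulates cholesterol and bile acid genes, and FXR, encoded by Nr1h4, is the receptor for bile acids.

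The stretches upstream of 5 members are shown because Onecut1 and the 3 Foxa genes had the highest or next to highest values of all libraries in the same wild-type library, while Hnf4a varied little. That library was also next to highest for Hnf4a and for Cebpa, whose stretch is not shown. Each is read 5′ to 3′ on the strand of the gene and comes from RefSeq (GRCm38.p6). It lies within the 250 bases before the most upstream RefSeq start of the gene. Bases annotated as exons of its own gene are left out, which shortened Foxa1 to 240 and Hnf4a to 201 bases. RefSeq lists 2 starts for Hnf4a and 3 for Foxa2, and which of them the liver libraries used was not tested. The Foxa1 stretch lies inside the annotated span of the gene. Capitals mark matches to the motifs searched.

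Onecut1, plus strand, chr9:74861671-74861920: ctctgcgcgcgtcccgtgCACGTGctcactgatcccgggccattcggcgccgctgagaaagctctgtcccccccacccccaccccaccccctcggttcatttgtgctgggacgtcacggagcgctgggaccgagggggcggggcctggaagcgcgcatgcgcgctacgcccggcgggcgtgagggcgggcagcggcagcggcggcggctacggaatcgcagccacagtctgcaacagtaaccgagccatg
Foxa1, minus strand, chr12:57546122-57546361: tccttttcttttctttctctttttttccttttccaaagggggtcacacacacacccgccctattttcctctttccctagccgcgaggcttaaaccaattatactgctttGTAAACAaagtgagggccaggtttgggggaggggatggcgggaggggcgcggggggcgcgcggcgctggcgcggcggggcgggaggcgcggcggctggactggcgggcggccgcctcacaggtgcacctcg
Foxa2, minus strand, chr2:148046970-148047219: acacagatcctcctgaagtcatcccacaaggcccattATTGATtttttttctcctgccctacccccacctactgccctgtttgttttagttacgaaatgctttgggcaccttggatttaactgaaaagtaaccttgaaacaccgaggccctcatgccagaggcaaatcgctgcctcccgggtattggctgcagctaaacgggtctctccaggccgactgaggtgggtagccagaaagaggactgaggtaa
Foxa3, minus strand, chr7:19023540-19023789: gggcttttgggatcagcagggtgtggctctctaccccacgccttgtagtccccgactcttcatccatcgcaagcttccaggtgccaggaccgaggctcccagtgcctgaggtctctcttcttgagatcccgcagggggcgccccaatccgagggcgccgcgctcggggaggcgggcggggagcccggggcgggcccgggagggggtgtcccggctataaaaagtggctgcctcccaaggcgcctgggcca
Hnf4a, plus strand, chr2:163506607-163506807: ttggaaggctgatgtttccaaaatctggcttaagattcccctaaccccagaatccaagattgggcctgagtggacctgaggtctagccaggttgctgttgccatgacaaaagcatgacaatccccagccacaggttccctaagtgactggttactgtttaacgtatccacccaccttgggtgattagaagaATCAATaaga

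The capitals in Onecut1 are an E-box, CACGTG, the motif of CLOCK and other basic helix-loop-helix factors, which 6.04% of 27025 gene promoters of the same length held. Foxa1 carries the forkhead motif TGTTTAC, on the opposite strand, which 3.06% held. Foxa2 and Hnf4a each carry the ONECUT motif ATTGAT, which 6.95% held and which lies on the opposite strand in Hnf4a. The Foxa3 stretch holds none of the motifs searched. The motifs named here were searched on both strands in the 250 bases of each of the 9 members. The nuclear receptor half-site AGGTCA was found in Nr5a2 and Nr1h4 and in 13.8% of promoters. The C/EBP motif TTGCNNAA (9.55% of promoters), the HNF4 motif CAAAGTCCA (0.377%), the NR5A2 motif CAAGGTCA, which contains the half-site (1.3%), and the D-box TTATGTAA (0.862%) were found in 0 of the 9. A match describes letters in a window and does not show binding.

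The libraries had 36928472 to 46736592 counts in KI and 40297676 to 46755357 counts in WT. On the first principal component, which held 29.5% of the variance, WT replicate 1 scored -9.56 and lay within the KI range of -26.4 to -7.95, apart from WT replicates 2 and 3 at 32.5 and 36.0. Hepatocyte markers were high throughout, and their 8 genes summed to 65688 to 82439 CPM in KI and 77001 to 93168 CPM in WT. All 8 of 8 log2 differences were negative, and edgeR and DESeq2 called 0. EdgeR found 2 (25%) at an unadjusted p under 0.05, against 10.6% of all genes tested. In bulk liver, fewer cells of a type and less RNA per cell cannot be told apart. Skeletal muscle markers summed to 82.2 CPM in KI replicate 1, to 0.472 to 0.847 CPM in the other KI libraries and to 0.595 to 1.20 CPM in WT, and without that library 0 of the 9 factor genes were called. Without WT replicate 1 edgeR called 98 genes in place of 5, and 0 of the 9.

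All 9 genes were expressed in every library, at 507 or more counts each, and passed the expression filter. On the per-length TPM scale that the authors deposited, Cebpa had the highest median level over the 7 libraries, 406 TPM with a range of 367 to 444, and Hnf4a followed with 259 TPM and a range of 205 to 287. These ranges did not overlap each other, and that of Hnf4a did not overlap that of Nr1h4, at 92.2 TPM with a range of 73.1 to 120.3. Below them came Foxa3 (52.1 TPM), Onecut1 (41.9), Prox1 (22.8), Foxa2 (17.6), Nr5a2 (17.1) and Foxa1 (11.8), and each of these overlapped its neighbours in the order. Onecut1 had the widest range by fold, 8.96 to 88.4 TPM, which spans the medians of the 5 genes next to it in the order, Foxa3 above it and Prox1, Foxa2, Nr5a2 and Foxa1 below it. Where no other unit is named, levels below are in CPM, library-size-scaled counts with TMM factors, which are compared between libraries and not between genes.

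None of the 9 genes was called different between the genotypes. In the edgeR quasi-likelihood test with Benjamini-Hochberg adjustment under 0.05, 0 of 9 were called, and 0.0357% of the 13989 genes tested were called, 0.0286% higher in KI and 0.00715% lower in KI. Of the 9 log2 differences 5 were above 0, as were 50.1% of those of all genes. At an unadjusted p under 0.05 edgeR found 0 of the 9, against 10.6% of all genes tested. DESeq2 called 0 of the 9 and 1.6% of all genes, and limma-voom called 0 and 0.05%. The 4 KI and 3 WT libraries overlapped for all 9 genes, while the groups did not overlap for 10.9% of genes tested. The median log2 difference of the 9 genes, KI minus WT, was 0.04, beside 0.0007 for all genes. The authors' deposited table gave the 9 genes log2 fold changes from -0.38 to 0.67, with a corrected p of 1.00 for each.

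**Figure D1:**
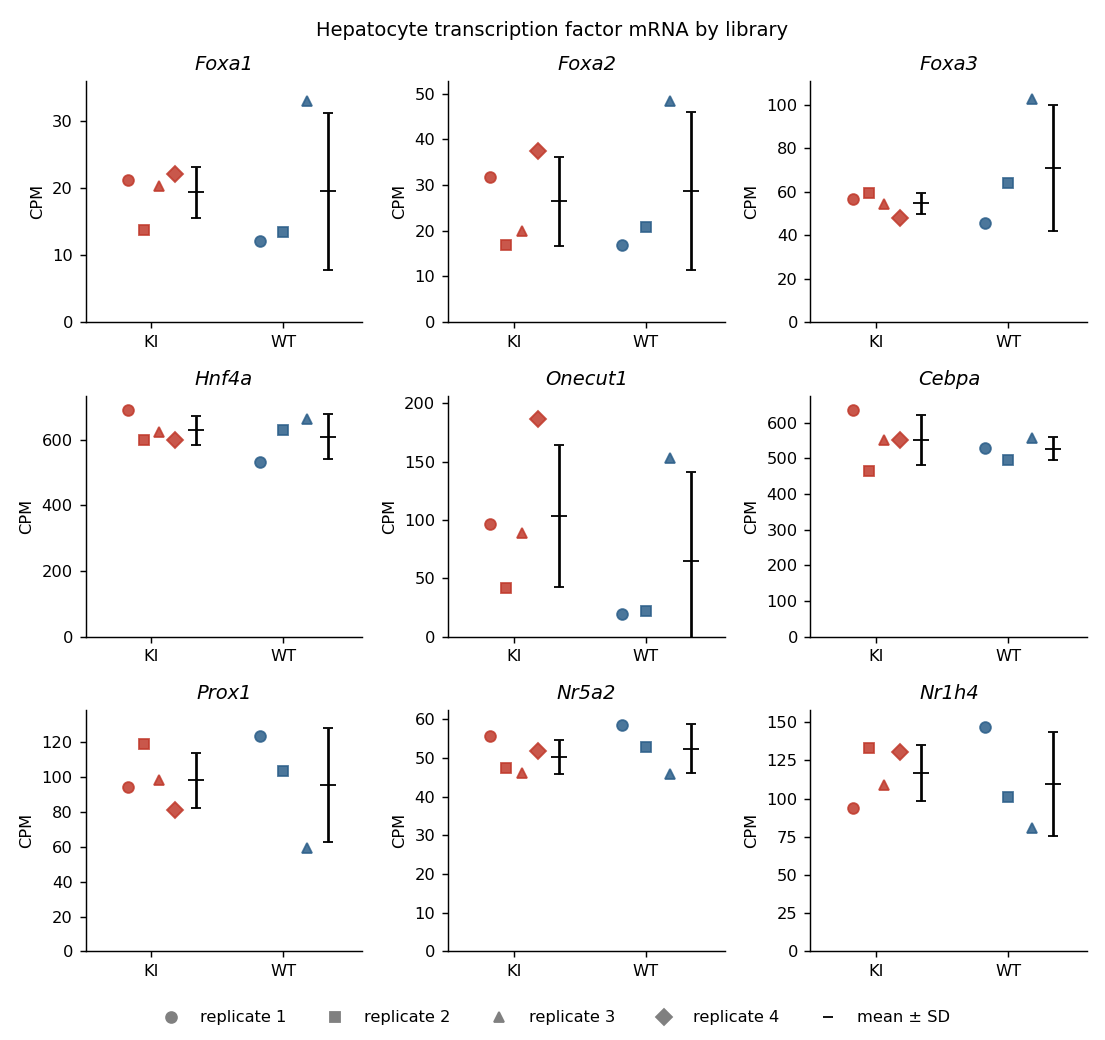
CPM (y axes, from 0) of each factor gene in the 4 KI libraries (red) and 3 WT libraries (blue), with marker shape giving the replicate number and black bars the mean ± SD; the lower SD bar of Onecut1 in WT is clipped at 0. The groups overlap in every panel, and WT replicate 3 (blue triangle) is the highest of the 7 libraries for the 3 Foxa genes and the lowest for Prox1, Nr5a2 and Nr1h4.

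The precision behind these values differed between the genes. For Hnf4a, Cebpa and Nr5a2 the 95% intervals of the log2 difference reached no farther than 0.33 from 0. For Onecut1 the interval ran from -1.04 to 2.39, which is 0.485-fold to 5.24-fold. The 3 Foxa genes, Prox1 and Nr1h4 lay between.

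Among the forkhead genes, Foxa1 (ENSMUSG00000035451, chromosome 12, 57540628 to 57546916, minus strand, mm10) had 21.2, 13.7, 20.2 and 22.1 CPM in the KI libraries, against 12.1, 13.4 and 32.9 CPM in the WT libraries. The highest and the lowest value were both WT, and the KI libraries fell between them. The means were 19.3 ± 3.82 CPM in KI (SD, n = 4) and 19.5 ± 11.7 CPM in WT (SD, n = 3), and KI minus WT came to -0.01 on the log2 scale (SE 0.34, edgeR adjusted p = 0.991). Without WT replicate 3 it came to 0.60 (SE 0.19, edgeR unadjusted p = 0.0148, adjusted p = 0.380) and missed the threshold.

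Foxa2 (ENSMUSG00000037025, chromosome 2, 148042877 to 148046969, minus strand), which also acts in the fasting response of the liver, had 31.7, 16.8, 19.9 and 37.5 CPM in KI and 16.8, 20.9 and 48.4 CPM in WT. KI replicates 1 and 4 and WT replicate 3 stood above the other 4 libraries. The fitted difference, KI minus WT, was -0.12 log2 units (SE 0.40, edgeR adjusted p = 0.940), and without WT replicate 3 it was 0.49 (SE 0.32, edgeR adjusted p = 0.616).

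Foxa3 (ENSMUSG00000040891, chromosome 7, 19013284 to 19023538, minus strand) kept a narrower range within KI than its relatives, with 56.7, 59.7, 54.5 and 48.2 CPM in KI and 45.8, 64.0 and 102.7 CPM in WT. The KI libraries kept within 1.24-fold of each other, and KI replicate 4, highest in KI for Foxa1 and Foxa2, was lowest in KI for Foxa3. The fitted difference was -0.37 log2 units (SE 0.23, edgeR adjusted p = 0.584), the most negative of the 9. This value turned on WT replicate 3, without which it was -0.0028 (SE 0.15, edgeR adjusted p = 0.996), while without WT replicate 1 it was -0.61 (SE 0.18, edgeR unadjusted p = 0.00887, adjusted p = 0.174).

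The 3 FOXA proteins bind the same forkhead motif, so the make-up of the family was also compared per length. Foxa3 supplied most of the FOXA mRNA in every library, 58.5, 72.3, 64.9 and 51.3% of the summed TPM in KI and 67.7, 71.0 and 62.4% in WT. Foxa2 supplied 25.1 ± 7.63% in KI (SD, n = 4) and 22.2 ± 2.79% in WT (SD, n = 3), and Foxa1 13.2 ± 2.09% in KI and 10.8 ± 1.57% in WT. The Foxa3 share differed by -5.30 percentage points, KI minus WT (exact two-sided permutation p = 0.429, adjusted over the 3 shares 0.571). The Foxa1 share differed by 2.41 points (exact permutation p = 0.143, adjusted 0.429) and the Foxa2 share by 2.89 points (exact permutation p = 0.571, adjusted 0.571). The smallest p that 35 splits allow is 0.0286. Summed FOXA TPM was 87.7, 84.4, 80.2 and 89.7 in KI, against 61.7, 88.5 and 169 in WT, so that the lowest and the highest sums were both WT.

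**Figure D2:**
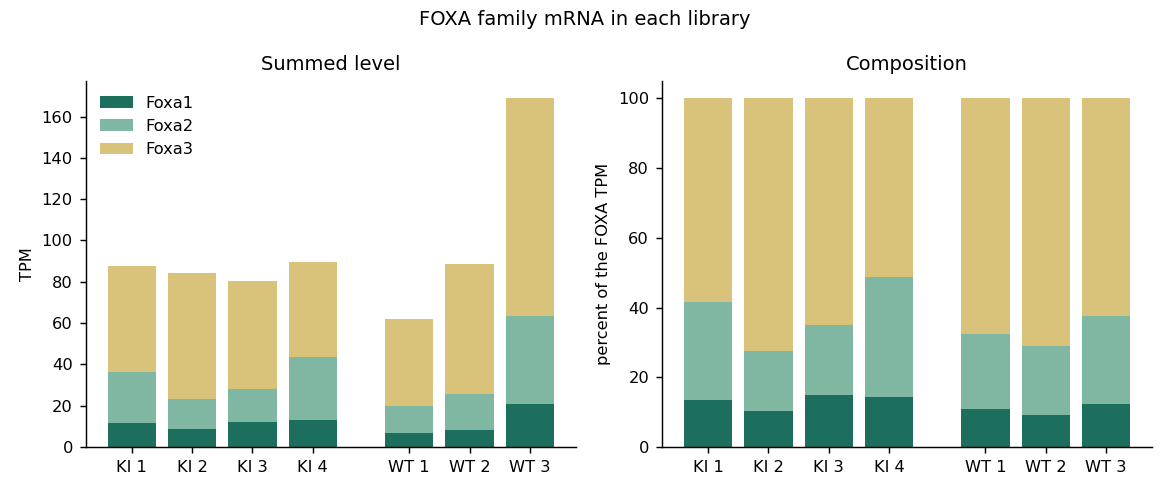
Stacked bars of Foxa1, Foxa2 and Foxa3 in each library, KI left of WT, as TPM (left panel) and as percent of the 3 genes summed (right panel). The sum reaches 169 TPM in WT replicate 3 against 61.7 to 89.7 TPM in the other 6 libraries, and Foxa3 supplies 51.3 to 72.3% throughout.

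Hnf4a (ENSMUSG00000017950, chromosome 2, 163506808 to 163572910, plus strand) was among the steadiest of the 9. It had 691, 599, 624 and 599 CPM in KI and 533, 630.4 and 664 CPM in WT. The averages were 628 ± 43.4 CPM in KI (SD, n = 4) and 609 ± 67.9 CPM in WT (SD, n = 3), so that KI minus WT was 0.05 log2 units (SE 0.11, 95% interval -0.20 to 0.29, edgeR adjusted p = 0.910). RefSeq lists 2 starts for Hnf4a, and counts per gene do not separate transcripts that begin at different starts.

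Onecut1 (ENSMUSG00000043013, chromosome 9, 74861921 to 74891781, plus strand) was the most variable. It had 96.3, 42.0, 88.7 and 187 CPM in KI, against 19.8, 21.9 and 153 CPM in WT. WT replicates 1 and 2 were the 2 lowest libraries, and WT replicate 3 lay between the highest and the next KI library. The fold between highest and lowest library was 4.45 within KI and 7.72 within WT. The means of 103 ± 60.5 CPM in KI (SD, n = 4) and 64.9 ± 76.2 CPM in WT (SD, n = 3) gave a KI minus WT value of 0.67 log2 units (SE 0.75, edgeR adjusted p = 0.774). Without WT replicate 3 this value was 2.31 (SE 0.53), still short of the threshold (edgeR unadjusted p = 0.00266, adjusted p = 0.275). It was 0.22 without KI replicate 4, 0.24 without WT replicate 1 and 0.26 without WT replicate 2, and 0.70 to 0.94 without any other. Of the exonic bases of Onecut1, 52.8% are shared with the long noncoding gene Gm20649 on the same strand, so that reads of the pair cannot be assigned with certainty. Gm20649 had 108, 39, 129 and 240 counts in KI and 59, 63 and 168 counts in WT, against 832 to 7934 counts of Onecut1.

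Cebpa (ENSMUSG00000034957, chromosome 7, 35119293 to 35121928, plus strand) had 635, 464, 550.5 and 552 CPM in KI and 528, 494 and 558 CPM in WT. KI replicates 1 and 2 were the highest and the lowest of all libraries, with WT inside. KI minus WT was 0.06 log2 units (SE 0.12, 95% interval -0.21 to 0.33, edgeR adjusted p = 0.877). An antisense gene, Gm45091, shares 1.93% of its exonic bases and had 22 to 35 counts per library.

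Prox1 (ENSMUSG00000010175, chromosome 1, 190118035 to 190170714, minus strand), which also marks lymphatic endothelium, had 94.6, 119, 98.4 and 81.1 CPM in KI and 124, 104 and 59.6 CPM in WT. WT replicate 3 was the lowest library and WT replicate 1 the highest, and within KI replicate 4 was the lowest and replicate 2 the highest. On the log2 scale KI minus WT came to 0.04 (SE 0.23, edgeR adjusted p = 0.963), and without WT replicate 3 it was -0.21 (SE 0.15, edgeR adjusted p = 0.659). Prox1os on the opposite strand shares 1.59% of the exonic bases and had 155 to 238 counts per library.

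Of the nuclear receptors, Nr5a2 (ENSMUSG00000026398, chromosome 1, 136842571 to 136960448, minus strand) had 55.7, 47.5, 46.0 and 51.9 CPM in KI and 58.4, 52.9 and 45.8 CPM in WT. All 7 libraries lay within 1.28-fold of each other, the smallest range of the 9 genes. On the log2 scale KI minus WT came to -0.06 (SE 0.11, 95% interval -0.30 to 0.18, edgeR adjusted p = 0.873).

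Nr1h4 (ENSMUSG00000047638, chromosome 10, 89454234 to 89533585, minus strand) had 93.9, 133, 109 and 130.2 CPM in KI and 147, 101 and 80.6 CPM in WT. WT held the highest and the lowest library, as for Foxa1. KI minus WT was 0.09 log2 units (SE 0.20, edgeR adjusted p = 0.902), and without WT replicate 3 it was -0.09 (SE 0.19, edgeR adjusted p = 0.897). Without WT replicate 1 it was 0.36 (SE 0.17, edgeR adjusted p = 0.369). Its target Nr0b2, which encodes the repressor SHP, had 23.1, 29.1, 23.8 and 24.8 CPM in KI and 31.2, 19.7 and 30.0 CPM in WT. The log2 CPM of Nr0b2 minus that of Nr1h4 was -2.02, -2.19, -2.20 and -2.39 in KI, against -2.23, -2.36 and -1.42 in WT. WT replicate 3 stood above all other libraries. The means differed by -0.19, KI minus WT (exact two-sided permutation p = 0.657), and by 0.10 without WT replicate 3.

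**Figure D3:**
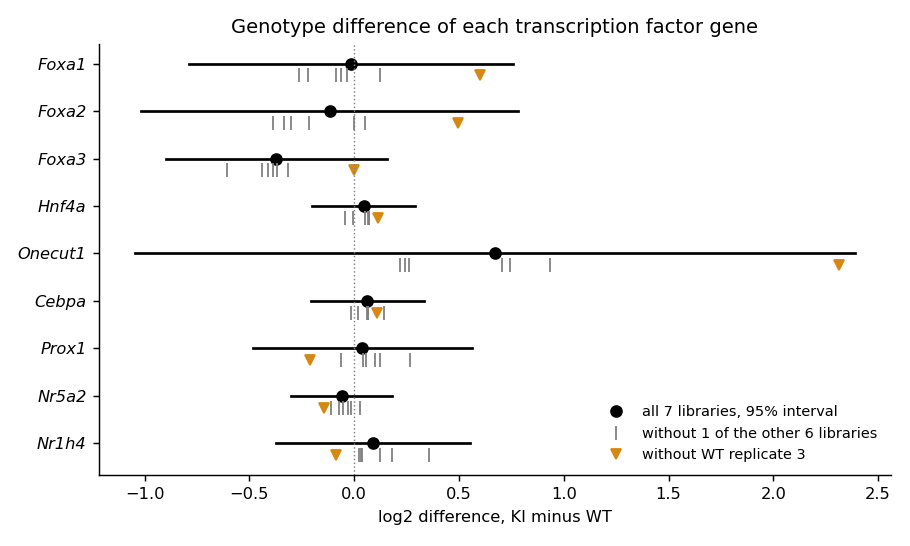
Log2 difference, KI minus WT, of each factor gene with its 95% interval from the edgeR fit of all 7 libraries (black), and the difference with 1 library left out (grey ticks, orange triangle for WT replicate 3). Every interval holds 0; that of Onecut1 runs from -1.04 to 2.39, and its value without WT replicate 3 is 2.31.

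The members split by how much they varied within a genotype. The within-genotype SD of log2 CPM was 0.13 for Hnf4a, 0.15 for Nr5a2 and 0.15 for Cebpa, and 39.3 to 52.8% of the 7388 genes averaging 10 CPM or more varied more than these genes. It was 0.33 for Nr1h4, 0.38 for Foxa3 and 0.39 for Prox1, 0.56 for Foxa1, 0.66 for Foxa2 and 1.25 for Onecut1. Of the ranked genes 2.64% varied more than Foxa1, 1.73% more than Foxa2 and 0.189% more than Onecut1. These shares describe the libraries, and no test was attached to them.

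The order of the libraries was shared by several of the variable genes. WT replicate 3 was the highest library for Foxa1, Foxa2 and Foxa3, the next to highest for Onecut1, Hnf4a and Cebpa, and the lowest for Prox1, Nr5a2 and Nr1h4. Within KI, replicate 4 was highest and replicate 2 lowest for Onecut1, Foxa1 and Foxa2, while replicate 4 was lowest and replicate 2 highest for Prox1. Clock genes, a list added after the values of the 9 genes had been seen, also differed between these libraries, as 4 of them, picked by their values, show. Arntl, which encodes the clock activator BMAL1, had 2.98, 0.865, 2.15 and 5.63 CPM in KI and 1.38, 3.27 and 10.9 CPM in WT. WT replicate 3 and KI replicate 4 were thus the 2 highest libraries for Arntl, as they were for Onecut1 and Foxa2. Per1, a repressor of the clock, had 21.8, 46.1, 19.9 and 11.1 CPM in KI and 41.7, 33.1 and 4.32 CPM in WT. Dbp, a clock output gene, had 99.9, 86.4, 107 and 50.8 CPM in KI and 122, 65.9 and 31.9 CPM in WT, and Ciart had 6.20, 17.0, 6.08 and 1.32 CPM in KI and 13.6, 3.74 and 1.02 CPM in WT. The same 2 libraries were lowest for all 3 of these genes. WT replicate 2, which was low for Onecut1, was next highest after them for Arntl. Of 17 clock genes tested, 8 had positive and 9 negative log2 differences between genotypes, and edgeR and DESeq2 called 0. EdgeR found 2 (11.8%) at an unadjusted p under 0.05, against 10.6% of all genes tested. The sources used here do not state when livers were taken, and the part of the clock in the levels of the factor genes was not tested. With log2 CPM of Arntl as a covariate, an alternative chosen after seeing the data, Onecut1 came to 1.67 log2 units (SE 0.28, edgeR unadjusted p = 4.01e-04, adjusted p = 0.144). In the same fit Foxa1 had 0.36 and Foxa2 0.28 (edgeR adjusted p = 0.448 and 0.461), and 0 of the 9 genes were called. Arntl was picked by its values and shares its 2 highest libraries with Onecut1. The SE and p-values of this fit therefore do not test the part of the clock.

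**Figure D4:**
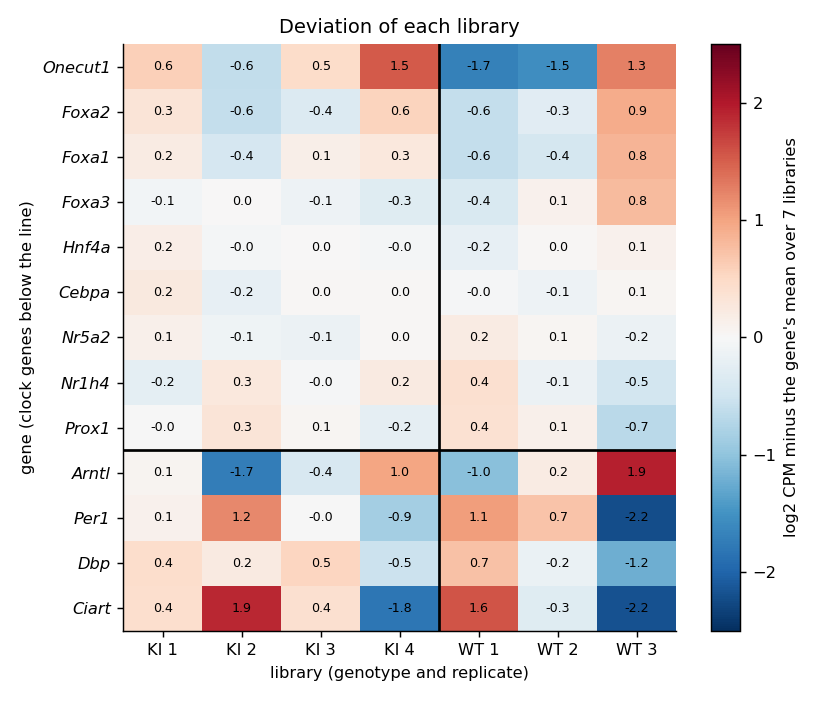
Log2 CPM of each library minus the mean of the gene over all 7 libraries (colour and printed value), KI libraries left of the black line and WT right of it, with the 9 factor genes above and 4 clock genes below the horizontal line; a prior count of 2 was used for the factor genes and none for the clock genes. WT replicate 3 and KI replicate 4 are positive for Onecut1, Foxa2, Foxa1 and Arntl and negative for Prox1, Per1, Dbp and Ciart.

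For each member, the gene outside the list with the most similar profile over the 7 libraries was taken by the root mean square difference of centred log2 CPM, among 11785 genes averaging 1 CPM or more. Xbp1, which encodes a regulator of secretory capacity, was nearest to Foxa1 at 0.12, with 292, 194, 309 and 331 CPM in KI and 181, 194 and 385 CPM in WT. Arid5b was nearest to Foxa2 (0.14), Tcf7l2, a mediator of Wnt signalling, to Prox1 (0.09), and Ikzf4 to Onecut1 (0.50). The distance for Onecut1 was the largest of the 9, and its own deviations had a root mean square of 1.20. The nearest to the other members were Gm15318 for Foxa3 (0.11), Gas2l3 for Nr1h4 (0.08), Ttc8 for Nr5a2 (0.06), Selenof for Cebpa (0.04) and the row named Map2k7_1 for Hnf4a (0.02). With 7 libraries these are descriptions.

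The other regulators of the hepatocyte network were not called either. Of 40 further transcription factors and nuclear receptors, all tested, 20 had positive and 20 negative log2 differences, with a median of -0.01. EdgeR and DESeq2 called 0 of the 40, and edgeR found 1 at an unadjusted p under 0.05. This was Rora, a nuclear receptor of clock and lipid control, with 62.6, 58.3, 56.5 and 55.6 CPM in KI and 64.9, 77.3 and 70.6 CPM in WT. The fitted difference, KI minus WT, was -0.28 log2 units (SE 0.08, edgeR adjusted p = 0.331), and the groups did not overlap. Nr1i2, the xenobiotic receptor PXR, had -0.23, Atf5 had -0.47 and Cebpg had -0.15 (edgeR adjusted p = 0.487, 0.516 and 0.557). Onecut2, the paralog of Onecut1, had 79.4 to 91.8 CPM in KI and 58.7 to 91.9 CPM in WT, without the wide range of Onecut1.

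Target genes of the factors were examined as lists, which were chosen with earlier results of these data known. Of 38 textbook genes of the HNF4A network, 10 had positive and 28 negative log2 differences, with a median of -0.11. EdgeR called 0 and found 3 at an unadjusted p under 0.05, Pklr, Hpd and Mttp. Pklr, which encodes liver pyruvate kinase, had 173, 379, 416 and 543 CPM in KI and 226, 114 and 166 CPM in WT. The fitted difference was 1.16 log2 units (SE 0.37, edgeR adjusted p = 0.346), and it was the only gene of the list that DESeq2 called (DESeq2 adjusted p = 0.0361). Hpd, an enzyme of tyrosine breakdown, had -0.30 and Mttp, which loads lipid onto apolipoprotein B, had 0.28 (edgeR adjusted p = 0.435 and 0.469).

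Of 13 FOXA targets, 4 had positive and 9 negative differences (median -0.07), with 0 called by edgeR or DESeq2 and 0 at an unadjusted p under 0.05. G6pc, which encodes glucose-6-phosphatase and stands in the HNF4A, FOXA and CEBPA lists, had 0.79 (SE 0.39), at 199, 348, 461 and 750 CPM in KI and 316, 207 and 241 CPM in WT (edgeR adjusted p = 0.504). Of 13 CEBPA targets, 6 had positive and 7 negative differences (median -0.07), with 0 called by either tool and 1 at an unadjusted p under 0.05 in edgeR. This was Ass1, a urea cycle enzyme that also stands in the periportal list, at -0.50 (SE 0.21, edgeR adjusted p = 0.455).

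Among the 5 target lists, those of the nuclear receptors FXR and NR5A2 held the larger shares of small unadjusted p. Of the 20 FXR targets 19 were tested, 5 with positive and 14 with negative differences (median -0.10). The list also holds genes repressed through FXR, such as Cyp8b1, so these signs give no direction of FXR activity. Slc51a was at 0 counts in every library. EdgeR called 0 and found 4 (21.1%) at an unadjusted p under 0.05, against 10.6% of all genes. Sdc1, which encodes the proteoglycan syndecan 1, had 188, 181, 156 and 174 CPM in KI and 199, 258 and 281 CPM in WT. KI minus WT was -0.49 log2 units (SE 0.13, edgeR adjusted p = 0.262), and DESeq2 called it (DESeq2 adjusted p = 0.0355). Cyp8b1, the sterol 12-hydroxylase that sets the share of cholic acid and is repressed through FXR and SHP, had 124, 107, 209 and 119 CPM in KI and 62.6, 101 and 81.5 CPM in WT. All 4 KI libraries lay above all 3 WT libraries. The groups did not overlap for 3 (15.8%) of the 19 tested FXR targets, against 10.9% of all genes. The Cyp8b1 difference of 0.78 log2 units (SE 0.25) missed the threshold (edgeR adjusted p = 0.346, DESeq2 adjusted p = 0.0841). Fgfr4, the receptor for the gut hormone that lowers bile acid synthesis, had -0.32 and Abcb4, a phospholipid exporter, had 0.37 (edgeR adjusted p = 0.352 and 0.469). Cyp7a1, the rate-limiting enzyme of bile acid synthesis, had 0.23 (SE 0.12, edgeR adjusted p = 0.519).

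Of the 14 NR5A2 targets 12 were tested, 3 with positive and 9 with negative differences (median -0.20), and Cel was at 0 counts in every library. EdgeR and DESeq2 called 0, and edgeR found 5 (41.7%) at an unadjusted p under 0.05, against 10.6% of all genes. Among them were Cyp8b1, the sterol transporter genes Abcg5 (-0.62) and Abcg8 (-0.59), and Scarb1 (-0.39), which encodes the receptor for high-density lipoprotein (edgeR adjusted p = 0.364, 0.368 and 0.404 for Abcg5, Abcg8 and Scarb1). Abcg5 had 82.4, 79.1, 64.3 and 44.9 CPM in KI and 90.3, 127 and 94.7 CPM in WT. Every KI library lay below every WT library for Abcg5. The groups did not overlap for 3 (25%) of the 12 tested NR5A2 targets, against 10.9% of all genes. Cyp7a1, Cyp8b1, Nr0b2, Apoa1 and Abcb11 stand in both the FXR and the NR5A2 list.

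Genes of fetal liver or of hepatocytes losing identity showed no call. Of 18 listed, 11 passed the filter, 6 with positive and 5 with negative differences, and edgeR and DESeq2 called 0, with 0 at an unadjusted p under 0.05 in edgeR. Afp, the fetal albumin-like protein, had 1.43, 0.944, 0.887 and 2.28 CPM in KI and 0.762, 1.35 and 1.04 CPM in WT.

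**Figure D5:**
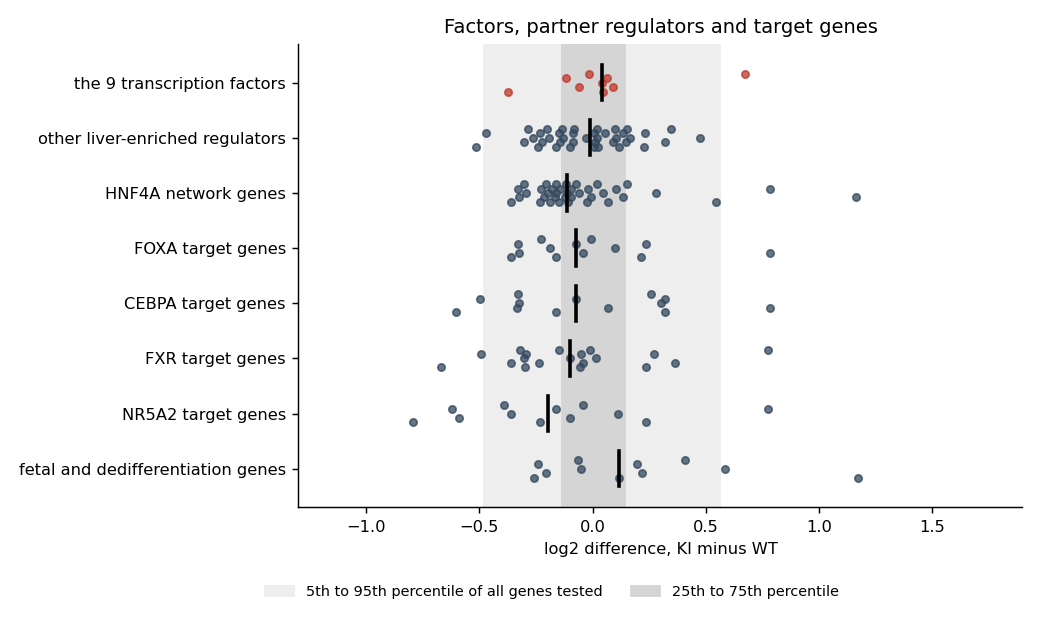
Log2 differences, KI minus WT, of the tested genes of each list (points; red for the 9 factor genes, vertical bars for list medians) over the span of all genes tested (grey bands). The list medians lie between -0.20 for NR5A2 targets and 0.11 for fetal genes, and edgeR called 0 of the genes plotted, while DESeq2 called Pklr and Sdc1.

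Bile duct cells also express Foxa1, Foxa2 and Onecut1, and 7 of 9 tested bile duct markers had positive differences, with sums of 58.1 to 76.0 CPM in KI and 40.4 to 56.9 CPM in WT. Spp1 gave the largest part of the sum in every library, with 35.0, 34.4, 48.8 and 42.5 CPM in KI and 21.6, 18.7 and 29.7 CPM in WT, and without it the sums of the groups overlap. None of the 10 was at 0 in every library. DESeq2 called Spp1 of these markers and 1.6% of all genes tested. EdgeR called 0 of the markers and found 2 (22.2%) at an unadjusted p under 0.05, against 10.6% of all genes. The part of these markers in the levels of Foxa1, Foxa2 and Onecut1 was not tested. Lymphatic endothelium also expresses Prox1, and its 6 markers, none at 0 in every library, summed to 62.4 to 99.2 CPM in KI and 65.0 to 83.4 CPM in WT. Reln, which also stands in the stellate and endothelial list, gave the largest part in every library. Flt4 and Lyve1 gave most of the rest, and Pdpn, Ccl21a and Mmrn1 were each at 2.27 CPM or less. Pancreas and intestine also express Nr5a2. Of 11 pancreatic markers 5 were at 0 in every library, among them Ptf1a, and the rest summed to 15.8 to 31.8 CPM in KI and 10.5 to 23.8 CPM in WT, mostly Cela1. Of 6 intestinal markers Cdx1 was at 0, and the sum of 44.7 to 80.7 CPM in KI and 48.5 to 73.6 CPM in WT was mostly Fabp2. Of 6 adipose markers Lep was at 0, and the sum of 5.70 to 9.58 CPM in KI and 5.88 to 11.2 CPM in WT was mostly Fabp4. Cfd, which encodes the complement protease adipsin, had 1.77, 1.49, 0.583 and 1.65 CPM in KI and 0.0476, 0 and 0.104 CPM in WT, and was called by DESeq2 (adjusted p = 8.01e-08) and not by edgeR (adjusted p = 0.0846). Stellate and endothelial markers summed to 245 to 301 CPM in KI and 238 to 282 CPM in WT. Macrophage markers summed to 131 to 166 CPM in KI and 196 to 269 CPM in WT, with 8 of 8 log2 differences negative. EdgeR called 1 of the 8, Timd4, against 0.0357% of all genes tested. DESeq2 called 6 of the 8, against 1.6% of all genes. The groups did not overlap for 6, against 10.9% of all genes. The part of the macrophage markers in the levels of the factor genes was not tested.

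Markers of the zones of the lobule were counted as well. Of 15 pericentral genes, 15 had positive log2 differences, and of 15 periportal genes, 15 had negative ones, against 50.1% positive over all genes tested. EdgeR called 0 of either list and found 6 (40%) and 7 (46.7%) at an unadjusted p under 0.05, against 10.6% of all genes. DESeq2 called 4 of each list, against 1.6% of all genes. The groups did not overlap for 4 (26.7%) of the pericentral and 6 (40%) of the periportal genes, against 10.9% of all genes. The periportal sum was 12026 to 14484 CPM in KI and 15158 to 19042 CPM in WT, without overlap. The pericentral sum was 11347 to 12730 CPM in KI and 13044, 7073 and 6954 CPM in WT replicates 1, 2 and 3. WT replicate 1 lay apart from the other WT libraries in the pericentral sum. Among the factor genes it was WT replicate 3 that lay farthest from the other WT libraries for the 3 Foxa genes, Onecut1 and Prox1, and WT replicate 1 for Hnf4a and Nr1h4. The part of zonation in the levels of the factor genes was not tested.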

How the data were processed

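RNA-seq counts of 4 KI and 3 WT liver libraries were analysed. Per the labels' protocols, libraries were made from oligo(dT)-selected RNA with random priming and no stated strand mark, so overlapping genes on opposite strands were treated as not separable. Per the submitters' processing notes, reads were placed on mm10; the sources used here do not name the mapper, the counter or the annotation. The deposited total counts are whole numbers per gene without normalization, per the file headers. The deposited TPM values are scaled by the authors to gene length and library. They were used to compare genes and, for the FOXA shares and the FOXA sum, also to compare libraries. From the authors' own comparison the log2 fold change and the corrected p-value were quoted; 14 RPKM and CPM columns were not used.

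The quasi-likelihood test of edgeR 4.0.16, run in R 4.3.3, was applied to the counts (TMM scaling, default expression filter, group as the only term), adjusted over the 13989 genes tested; 21027 genes had a count. CPM values are TMM-scaled, and log2 CPM used a prior count of 2. The 95% intervals come from the fit. DESeq2 1.42.0 and limma-voom (limma 3.58.1) were alternatives, with RLE and upper-quartile scaling, other filters, a replicate block and leaving out each library; an Arntl covariate was added after the data were seen. The fit was tested on simulated data. No pair of libraries of a genotype agreed within sampling noise (chi-square per degree of freedom of at least 34.0).

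The members and lists were chosen with earlier results of these data known. Named were the 9 members, the called genes and up to 4 genes of smallest p in each list, and the nearest gene to each member; not all are described, and some are not reported here. The clock genes, Onecut2, Cebpb and Hnf4aos fall outside this rule and were picked with their values in view. Positions follow the deposited table and matched GENCODE release M21 for all 9 members, from which exon overlaps were taken. Promoters were matched by symbol for 9 of 9 members. Figures were drawn with matplotlib 3.10.9.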

Additional observations from a re-analysis of the deposited data

How the results depend on the processing

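The count of 0 members called held under all 15 alternatives. The count of all genes called, 5, was 224 with the DESeq2 Wald test, 18 without an expression filter and 1 with the replicate block, and 3 to 98 with 1 library left out (98 without WT replicate 1, 3 without KI replicate 1 or 4). The cause was not tested. Same-numbered libraries did not deviate together (correlations of -0.06, 0.005 and -0.02), and none of the 3 WT libraries correlated best with its own number. With so few libraries this cannot exclude that some were paired. Foxa1 was at 0.10 in limma-voom, 0.041 with the replicate block and 0.36 with the Arntl covariate, against -0.01; the same covariate gave 0.28 for Foxa2 and -0.095 for Prox1. With 1 library left out, log2 differences ran from -0.27 to 0.60 for Foxa1, -0.39 to 0.49 for Foxa2, -0.61 to -0.0028 for Foxa3, -0.042 to 0.11 for Hnf4a, 0.22 to 2.31 for Onecut1, -0.013 to 0.14 for Cebpa, -0.21 to 0.27 for Prox1, -0.14 to 0.027 for Nr5a2 and -0.088 to 0.36 for Nr1h4. In 118 of 135 refits of a member the direction held; the other 17 turned it. With 1 library left out, the FOXA shares differed by 1.59 to 3.42 points for Foxa1, -0.20 to 5.41 for Foxa2 (-0.20 without KI replicate 4) and -8.83 to -1.80 for Foxa3, and Nr0b2 minus Nr1h4 by -0.37 to 0.10. With a library left out the exact tests cannot pass 0.05, so these say nothing of stability. Each member had 507 counts or more in every library; what limits the calls was not tested.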

Other observations

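Cebpb, which encodes the inducible relative of C/EBPα and was chosen after its values were seen, had 145, 189, 109 and 100.1 CPM in KI, against 171, 144 and 60.2 CPM in WT. It was lowest in WT replicate 3 and, within KI, in replicate 4, while Cebpa was steady. Hnf4aos, transcribed from the opposite strand with no exonic base shared with Hnf4a and also chosen after its values were seen, had 163, 131, 137 and 126 counts in KI and 293, 177 and 108 counts in WT.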
